A study of Mus musculus with 48 samples.

Results

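The circadian clock genes described here were Arntl, Clock, Per1, Per2, Per3, Cry1, Cry2, Dbp, Nr1d1 and Nr1d2. They were chosen by symbol, and all 10 were found in both expression tables of the series, among 27086 genes listed for C57BL/6J mice and 18943 listed for APOE mice, of which 16952 were in both. The series measured RNA of the cerebral cortex of 48 mice in 12 groups of 4, crossing sex, genotype and inhaled air. The genotypes were C57BL/6J (B6), with the mouse Apoe gene, and the APOE-TR mice E3 and E4, in which targeted replacement put the human APOE3 or APOE4 allele at the mouse Apoe locus. Each genotype and sex had controls in filtered air (ctrl) and mice given nPM, nano-sized urban particulate matter, for 5 h a day on 3 days a week. B6 mice were 4 months old and had 8 weeks of exposure, and APOE-TR mice were 6 months old and had 15 weeks. The alleles are carried by whole animals, and the exposures of the B6 and APOE-TR mice were separate experiments that, per the study, used different batches of nPM. Genotype background, age, exposure time, nPM batch and table therefore cannot be told apart between B6 and APOE-TR mice, and their levels were not tested against each other.

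The mammalian clock is a transcriptional feedback loop that runs in nearly every cell, cortical cells included. CLOCK and BMAL1, the protein of Arntl, bind E-box sequences and activate the Per and Cry genes, whose proteins return to the nucleus and repress them. A stabilising loop runs through Nr1d1 and Nr1d2, the REV-ERB repressors, which silence Arntl through ROR elements, while Dbp is a direct E-box target whose protein activates D-box genes. In most tissues transcripts of the E-box targets peak at a different time of day than Arntl, so their levels depend on when tissue is taken. The hour of tissue collection is given neither by the labels nor by the methods, so hour and group cannot be told apart in any comparison below.

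The regulatory letters of this loop can be read in the promoters of the members. RefSeq windows of GRCm38.p6, the build called mm10 in the submitters' notes, run from 250 bases before to 50 bases after a transcript start and covered 9 of the 10 members with 13 windows. Exact letters of 5 motifs were searched on both strands: the E-box CACGTG, held by 7.15% of 32851 windows of all genes, the variant E-box CACGTT (4.68%), the D-box TTATGTAA (0.938%), the ROR element TAGGTCA (2.61%) and the cyclic AMP element TGACGTCA (1.79%). Matches were found in Per3, Cry1, Cry2, Nr1d1 and in 1 of the 2 windows of Per1 and of Arntl, and no matches shared bases. The windows of Clock, Dbp and Nr1d2 held none of these letters, which says nothing about sites elsewhere, and no window held the cyclic AMP element. The windows below were chosen because each holds 1 kind of element of the loop beside a member whose values are reported. Positions count from the transcript start, whose first base is 1, and capitals mark the match, on either strand, in sequences given along the gene's own strand:
Per1, chr11:69098699-69098998, plus strand, E-box first base at -166: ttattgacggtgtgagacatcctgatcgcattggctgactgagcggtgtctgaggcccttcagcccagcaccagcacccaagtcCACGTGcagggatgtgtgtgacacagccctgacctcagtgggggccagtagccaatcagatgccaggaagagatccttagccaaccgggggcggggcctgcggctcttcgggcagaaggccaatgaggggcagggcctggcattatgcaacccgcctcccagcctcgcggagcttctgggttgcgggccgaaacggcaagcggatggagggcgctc
Cry2, chr2:92434020-92434319, minus strand, variant E-box at -166: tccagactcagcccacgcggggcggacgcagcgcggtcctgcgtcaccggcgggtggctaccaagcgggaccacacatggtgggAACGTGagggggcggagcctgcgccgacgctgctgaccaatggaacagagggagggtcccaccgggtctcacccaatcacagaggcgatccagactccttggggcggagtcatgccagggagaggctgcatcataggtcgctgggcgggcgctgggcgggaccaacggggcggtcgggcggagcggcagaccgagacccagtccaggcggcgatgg
Nr1d1, chr11:98775328-98775627, minus strand, variant E-box at -28: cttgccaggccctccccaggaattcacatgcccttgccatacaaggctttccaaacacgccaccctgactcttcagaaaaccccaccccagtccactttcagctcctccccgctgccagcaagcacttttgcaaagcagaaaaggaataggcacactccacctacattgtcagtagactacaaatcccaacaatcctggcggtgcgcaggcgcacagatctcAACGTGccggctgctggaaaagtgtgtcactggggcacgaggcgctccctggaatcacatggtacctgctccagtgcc
Per3, chr4:151044616-151044915, minus strand, D-boxes at -205 and -158: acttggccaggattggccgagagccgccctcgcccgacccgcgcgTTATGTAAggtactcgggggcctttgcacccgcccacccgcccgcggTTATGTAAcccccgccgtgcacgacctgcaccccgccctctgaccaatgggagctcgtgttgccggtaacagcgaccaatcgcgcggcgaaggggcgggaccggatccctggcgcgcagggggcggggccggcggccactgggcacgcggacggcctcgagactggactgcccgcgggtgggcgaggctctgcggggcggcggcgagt
Arntl, chr7:113207261-113207560, plus strand, ROR element at 31: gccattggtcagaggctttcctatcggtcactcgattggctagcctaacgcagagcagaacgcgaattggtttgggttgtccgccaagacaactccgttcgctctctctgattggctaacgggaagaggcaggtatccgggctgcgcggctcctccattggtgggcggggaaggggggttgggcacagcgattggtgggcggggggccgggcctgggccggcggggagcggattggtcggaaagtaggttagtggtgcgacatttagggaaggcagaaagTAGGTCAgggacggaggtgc

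Depth and library quality set how far the values can be read. Rounded totals were 17830000 to 22270000 reads in APOE-TR females and 22430000 to 31260000 in APOE-TR males, which do not overlap. They were 4800000 to 24400000 in B6 females and 2050000 to 17200000 in B6 males. The fewest reads behind any value of a member were 14, for Cry1, in B6, and 148, for Per2, in APOE-TR. Sex labels fitted their markers, and mouse Apoe separated B6 from APOE-TR mice but checks no difference between E3 and E4, whose labels were not tested here. Group means of Xist were 200 to 766 CPM (reads of a gene scaled to a common library total) in females and 0.0936 to 0.191 CPM in males, and those of mouse Apoe were 208 to 396 CPM in B6 and 10.7 to 25.8 CPM in APOE-TR. Cortical projection neuron markers had reads in all mice, but their summed level in B6 male controls 0 and 2 was 81.9 and 184 CPM, against 469 to 960 CPM in the other B6 mice. In APOE-TR the E3 female controls 61 and F6 had the lowest sums, 433 and 492 CPM, and the leading axis of variation within groups, which held 47.1% of it, ran mainly among E3 females. The weights on it were -0.482, 0.568, -0.372 and 0.286 for the E3 female controls 52, 61, 63 and F6 and 0.348 for E3 female nPM mouse 55, and -0.184 to 0.103 for the other mice. Results that rest on these pairs of libraries are given with and without them. Of the markers of the suprachiasmatic nucleus, the master clock of the hypothalamus, Avp had reads in 2 of 16 B6 and 15 of 32 APOE-TR mice, with a median of 0.0455 and 0.036 CPM, Prok2 in 4 and 23 mice, and Six6 in 2 B6 mice. Vip and Rgs16, which cortical interneurons and other cortical cells also express, had reads in every mouse, with medians of 19.4 and 7.79 CPM in B6 and 26.1 and 7.97 CPM in APOE-TR. The summed markers of that region were highest in E3 female controls F6 and 61, at 85.3 and 78.6 CPM. In bulk cortex, fewer cells of a type and less RNA per cell cannot be told apart.

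Nr1d1, Dbp, Cry2 and Nr1d2 were the 4 most abundant members in both tables on the scale of CPM per kilobase of exon, Cry1 was among the 2 lowest in both, and Arntl was in the middle of the order in B6 and next to lowest in APOE-TR. In B6 the mean level was 44.1 CPM per kb for Nr1d1, 15.8 for Dbp, 14.7 for Cry2, 14.5 for Nr1d2, 4.02 for Clock, 3.52 for Arntl, 3.35 for Per1, 2.89 for Per2, 2.21 for Cry1 and 1.998 for Per3. In APOE-TR it was 29.4 for Nr1d1, 27.9 for Dbp, 26.4 for Nr1d2, 25.8 for Cry2, 9.51 for Per1, 8.77 for Clock, 7.73 for Per3, 5.56 for Per2, 5.47 for Arntl and 3.26 CPM per kb for Cry1. Group means overlapped widely for neighbours in these orders: in APOE-TR, Dbp ranged over 23.1 to 32.4 CPM per kb between groups and Nr1d1 over 14.8 to 33.4. Within groups the members differed in how tightly mice were held. In APOE-TR the within-group SD on the log2 scale was 0.48 for Per1, 0.45 for Per2, 0.39 for Nr1d1 and 0.36 for Per3, above 97.3%, 96.6%, 94.3% and 92.3% of 15958 genes, while that of Clock was 0.11, above 12.2%. Without E3 female controls 61 and F6 the SDs of Per1 and Per2, light- and activity-inducible repressors, were 0.36 and 0.38 and still above 97.6% and 98% of genes, whereas that of Cry2, 0.14, was above 39.3%. In B6 no member stood out, with SDs of 0.24 for Nr1d2 to 0.54 for Dbp, above 7.64% and 69.8% of genes.

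**Figure D1:**
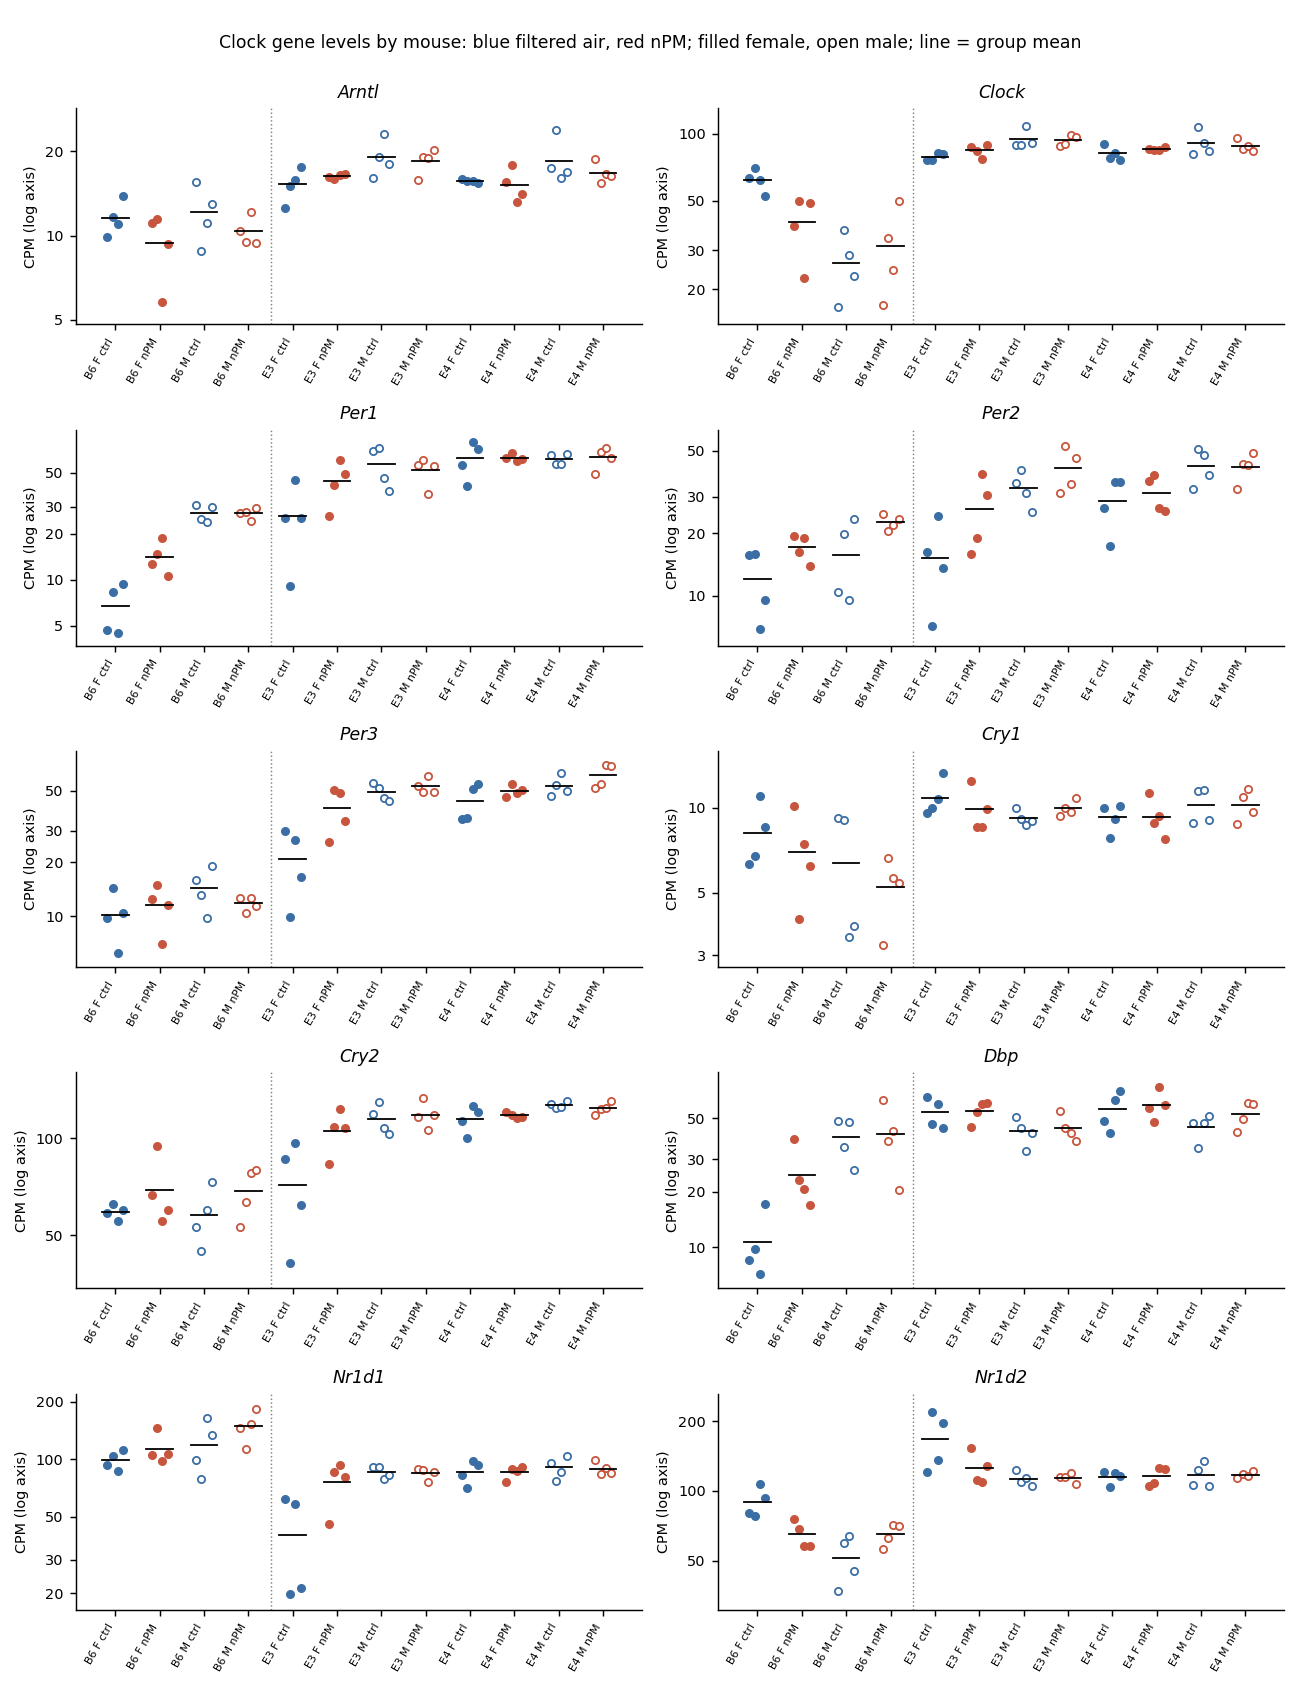
Level of each clock gene in each of the 48 mice, in CPM on a log axis, by group, with a bar at the group mean. B6 females sit below B6 males for Per1 in all mice (4.46 to 18.6 against 23.9 to 30.9 CPM), and E3 female controls spread from 19.7 to 61.8 CPM for Nr1d1.

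In B6 mice 4 of the 10 members differed between the sexes. Females had less Per1, the repressor gene most quickly induced by stimuli, and less Dbp, the output activator, and more Clock, the activator partner of BMAL1. Per1 was at 4.70, 8.35, 4.46 and 9.31 CPM in the female controls and at 30.9, 24.7, 23.9 and 29.7 CPM in the male controls. Under nPM it was at 12.7, 14.7, 18.6 and 10.5 CPM in females and 27.4, 27.6, 24.3 and 29.5 CPM in males, so no female reached the lowest male. Over both exposures Per1 was lower in females by a log2 difference of -1.48 (SE 0.18, limma adjusted p = 2.11e-05, 8 mice a sex), a fold of 0.358. Dbp was at 8.47, 9.82, 7.18 and 17.1 CPM in female controls and 48.7, 35.2, 47.7 and 26.2 CPM in male controls. These groups did not overlap, while under nPM the ranges of 16.9 to 38.6 CPM in females and 20.4 to 62.9 CPM in males did. Dbp was lower in females by a log2 difference of -1.28 (SE 0.23, limma adjusted p = 0.00065). Clock was at 63.04, 70.5, 61.9 and 52.6 CPM in female controls and 16.7, 36.9, 28.6 and 22.9 CPM in male controls, again without overlap. Its log2 difference was 0.83 (SE 0.21, limma adjusted p = 0.00728), and its ranges overlapped under nPM.

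In all, 4 of 10 members were called at a false discovery rate of 5% in B6, where 27% of 13840 genes were called. The last of the 4 was Nr1d2, a REV-ERB repressor, at 89.5 ± 13.3 CPM in female and 51.4 ± 12.5 CPM in male controls (SD, n = 4 each). Under nPM its means were 65.04 CPM in females and 65.08 CPM in males, and the ranges overlapped. Over both exposures its log2 difference was 0.40 (SE 0.13, limma adjusted p = 0.0292). Arntl did not pass, at 11.6 ± 1.67 against 12.1 ± 2.86 CPM in controls (SD, n = 4), with a log2 difference of -0.11 (95% interval -0.50 to 0.28). Cry2, a repressor, was as close, with a difference of 0.02 (-0.27 to 0.32), and Per2, Per3, Cry1 and Nr1d1 lay between -0.39 and 0.38 without passing. Without B6 male controls 0 and 2, Per1 (-1.49), Dbp (-1.25) and Clock (0.79) were still called, Nr1d2 was not (0.33, limma adjusted p = 0.085), Nr1d1 was (-0.52, limma adjusted p = 0.012), and 22.5% of genes were called. In that pair of libraries Clock was at 16.7 and 36.9 CPM, the lowest and the highest of the male controls, and Dbp at 48.7 and 35.2 CPM, the highest and the third highest.

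Other measured lists moved with this sex difference in B6, and their part in it was not tested. Cortical projection neuron markers were at a median log2 difference of 0.88, with 2 of 5 called, and striatum markers at -0.90, with 0 of 5 called, beside 0.01 over all genes and 27% of genes called. Without B6 male controls 0 and 2 these medians were 0.22, with 0 of 5 called, and -0.76: the summed projection neuron markers of the other males, 469 to 928 CPM, overlapped those of the females, 554 to 960 CPM. The summed striatum markers were 38.3 to 265 CPM in female controls and 254 to 595 CPM in male controls, and all 5 had reads in every mouse of these groups. Astrocyte markers were at a median log2 difference of 0.06, with 2 of 5 called higher in females, also without male controls 0 and 2. Their sums were 2568 to 2927 CPM in female controls and 710 to 1813 CPM in male controls, without overlap, and overlapped under nPM. Of 5 microglial markers 1 was higher and 2 lower in females, of 5 oligodendrocyte markers 1 was lower, and 0 of 5 endothelial markers were called. Of 10 immediate early genes, which respond to stimuli as Per1 does, 4 were lower in females and 1 higher, and without that pair 4 were lower and 0 higher. Of 9 glucocorticoid-responsive genes tested 3 were lower, a share near the 27% of all genes called, and 3 without the pair. With all mice they were Sgk1 (-1.10), Tsc22d3 (-1.18) and Ddit4 (-0.90). The immediate early genes lower in females were Junb (-1.38), Nr4a1 (-1.23), Dusp1 (-1.27) and Ier2 (-1.22), and Arc was higher (0.69). Of 5 genes that follow temperature, Cirbp, induced by cold, was lower in females (-1.57) and the heat-shock genes Hsph1 (0.90) and Hspa8 (1.00) were higher. Rbm3 and Hspa1b, the rest of that list, were not higher, and the median of the list was -0.002, with 2 of 5 above 0.

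In APOE-TR mice the estimates of the sex differences were nearer 0 than in B6 for Clock, Per1, Cry1, Dbp and Nr1d2 and farther from 0 for Per2, Per3, Nr1d1, Cry2 and Arntl. With all mice, only Clock, Per1 and Dbp passed the test between experiments given below. For Nr1d1 the order turned when the flagged pair of libraries of each experiment was left out (B6 -0.52, APOE-TR -0.21). Over both alleles, females had less of the Per repressors and Nr1d1 and slightly less Arntl and Clock, and slightly more Dbp and Nr1d2. In E4, control and nPM means of Per1 were 61.8 and 62.6 CPM in females and 61.5 and 62.8 CPM in males. In E3 they were 26.2 and 44.4 CPM in females and 56.6 and 52.025 CPM in males. Those of Nr1d2 were 114.9 and 115.8 against 117.3 and 117.7 CPM in E4, and 168 and 125.6 against 112.7 and 114.2 CPM in E3. Means of Per2, Per3 and Nr1d1 were lower in females in both alleles. Sex was not tested within an allele. Per2 was at 7.16 to 38.5 CPM in 16 females (median 25.98) and 25.4 to 52.5 CPM in 16 males (median 39.3), and Per3 at 9.90 to 54.5 CPM (median 40.6) and 44.0 to 69.5 CPM (median 52.4). The ranges of every member overlapped between the sexes. The log2 differences were -0.74 for Per2 (SE 0.15, limma adjusted p = 0.000115), -0.60 for Per3 (SE 0.12, 9.48e-05), -0.42 for Nr1d1 (SE 0.13, 0.00722), -0.40 for Per1 (SE 0.16, 0.0306) and -0.30 for Cry2 (SE 0.08, 0.00326). The activators differed by -0.23 for Arntl (SE 0.06, limma adjusted p = 0.00147) and -0.16 for Clock (SE 0.04, 0.00104), while Dbp was higher by 0.26 (SE 0.09, 0.0128) and Nr1d2 by 0.14 (SE 0.06, 0.0476). Cry1, a slow repressor, was the member not called, at -0.03 (95% interval -0.16 to 0.10). These 9 of 10 members stand beside 62.8% of 15958 genes called in the same contrast, in which the read totals of the sexes do not overlap. All 5 endothelial markers were called lower in females, with a median log2 difference of -1.33. Of 5 markers each, 3 were called higher for astrocytes (median 0.20), oligodendrocytes (0.25) and microglia (0.33). Of 5 projection neuron markers 3 were called lower (-0.22), as were 1 of 5 striatum and 1 of 5 blood markers. The part of these lists was not tested. Without E3 female controls 61 and F6, Per1 (-0.24, limma adjusted p = 0.0946) and Nr1d2 (0.07, 0.237) were not called and Nr1d1 was at -0.21 (0.0183), and 59% of all genes were called.

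**Figure D2:**
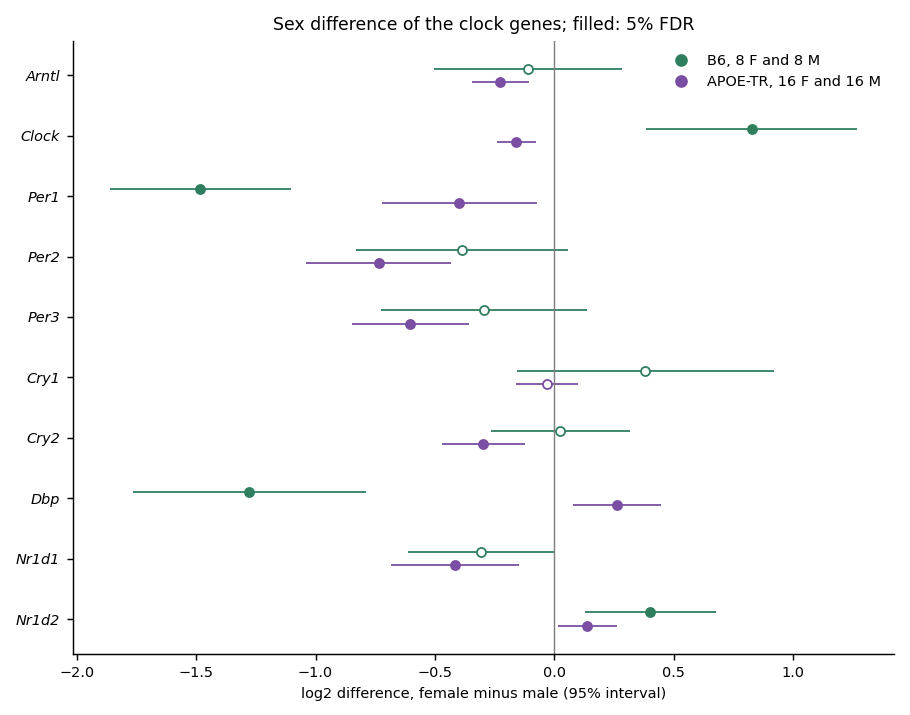
Log2 difference of female minus male for each clock gene in B6 (8 females, 8 males) and APOE-TR (16 females, 16 males), with 95% intervals, where filled points passed a false discovery rate of 5%. The intervals of Clock, Per1 and Dbp in B6 lie apart from those in APOE-TR.

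The sex differences of Clock, Per1 and Dbp were not the same in the B6 and APOE-TR experiments. In 1 fit of all 48 mice the difference between them, B6 minus APOE-TR, was 0.91 for Clock (SE 0.17, limma adjusted p = 1.94e-05), -1.15 for Per1 (SE 0.25, 0.000158) and -1.61 for Dbp (SE 0.22, 1.25e-07). This test, added after the values were seen, called 3 of 10 members and 50.4% of 11068 genes. For Dbp the sign itself turned, lower in B6 females and higher in APOE-TR females. The 7 other members differed by 0.04 to 0.34 and did not pass with all mice. Without B6 male controls 0 and 2 the differences were 0.91, -1.13 and -1.55, and Cry1 was called as well (0.66, limma adjusted p = 0.00277). Without E3 female controls 61 and F6 they were 0.91, -1.30 and -1.67, and Nr1d2 was called as well (0.27, limma adjusted p = 0.0392).

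In a wider list of 27 clock genes, partners, kinases, ligases and outputs, members differed in both directions between the sexes. In B6, 7 were higher and 5 lower in females of 23 tested, beside 27% of all genes called: Ppp1cb, a phosphatase subunit (1.03, limma adjusted p = 1.67e-05), Por, an output gene (-0.90, 0.00137), and Usp2, a deubiquitinase under clock control (-0.68, 0.00158), had the smallest p. In APOE-TR, 5 were higher and 14 lower of 27, beside 62.8% of all genes called, with the kinase Gsk3b (-0.34, limma adjusted p = 6.34e-05), the ligase subunit Btrc (-0.29, 0.000258) and the casein kinase Csnk1e (-0.20, 0.000367) first.

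The exposure comparison asked whether nPM changed the members within each sex and genotype. Only in B6 females did any member pass the study's threshold, an unadjusted p of 0.005, and that was 2 of the 60 tests. Per1 rose from 4.70, 8.35, 4.46 and 9.31 CPM in filtered air to 12.7, 14.7, 18.6 and 10.5 CPM under nPM, without overlap. Its log2 change was 1.10 (SE 0.32, fold 2.15, limma adjusted p = 0.384, exact permutation p = 0.0286, the smallest that 4 against 4 mice allow). Dbp rose from 8.47, 9.82, 7.18 and 17.1 CPM to 38.6, 23.01, 20.6 and 16.9 CPM, and the highest control was just above the lowest nPM mouse. Its log2 change was 1.23 (SE 0.32, fold 2.35, limma adjusted p = 0.384, exact permutation p = 0.0571). The 2 of 10 members stand beside 1.17% of 14726 genes called in this stratum, and neither held after adjustment over all genes. In limma, 4 members and 10.4% of genes had an unadjusted p under 0.05 there. The calls of Per1 and Dbp depended on single mice. Leaving out B6 female control 40 or 42 or nPM mouse 50 took both below the threshold, with log2 changes of 0.95 to 1.13 for Per1 and 0.99 to 1.16 for Dbp. Leaving out nPM mouse 51 or 52 also took Per1 below it.

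Clock was at 38.4, 50.1, 22.4 and 49.0 CPM in the B6 females under nPM, each below every female control (52.6 to 70.5 CPM), with a log2 difference of -0.64 (SE 0.23, exact permutation p = 0.0286) that did not pass the threshold. The means of nPM females, 14.1 CPM for Per1, 24.8 CPM for Dbp and 39.97 CPM for Clock, lay between those of female controls (6.70, 10.6 and 62.0 CPM) and male controls (27.3, 39.4 and 26.3 CPM). The same female controls entered both the sex and the exposure comparison of B6, so this order of means is not independent of either and was not tested. In this stratum striatum markers had a median log2 difference of 1.12, 0 of 5 called, with sums of 38.3 to 265 CPM in controls and 110 to 385 CPM under nPM. Astrocyte markers had a median of -0.27, with 2 of 5 higher under nPM and 0 of 5 called. Their sums, in which Slc1a2 weighed most, did not overlap, at 2568 to 2927 CPM in controls and 1939 to 2359 CPM under nPM. The part of these lists was not tested. In B6 males the same members were flat by their means but with wide intervals: Per1 -0.02 (95% interval -0.46 to 0.43), Dbp -0.03 (-0.71 to 0.65) and Clock 0.18 (-0.52 to 0.88). Without male controls 0 and 2 they were at 0.02, 0.09 and 0.17. The difference between the responses of B6 females and males was 1.11 for Per1 (SE 0.36), 1.25 for Dbp (SE 0.47) and -0.77 for Nr1d2 (SE 0.26), and limma called 0 of 10 members and 0.867% of 13840 genes, and 3 members and 8.54% of genes had an unadjusted p under 0.05.

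E3 females had the next widest differences, none called by limma, with 3 of 10 members at an unadjusted p under 0.05, beside 21% of all genes. Nr1d1 was at 61.8, 19.7, 58.8 and 21.3 CPM in filtered air and 46.2, 85.8, 93.1 and 81.0 CPM under nPM, which overlap. The log2 differences were 1.12 for Nr1d1, 1.06 for Per3, 0.95 for Per1, 0.85 for Per2 and 0.69 for Cry2, and the smallest exact permutation p among the members was 0.0571. Without controls 61 and F6 they were 0.32, 0.46, 0.35, 0.32 and 0.22. The controls 61 and F6 carried the low values of Nr1d1 and Cry2, and 0.672% of genes were called with them and 0.522% without. Cortical projection neuron markers were at a median log2 difference of 0.73 in this stratum and choroid plexus markers at -1.11, 0 of 5 called in each, and without that pair at 0.28 and -0.13, while 4 of 5 striatum markers were then lower under nPM (median -1.01). The part of these lists in the values of the members was not tested. In the other 4 strata limma called 0 of 10 members, and 0 had an unadjusted p under 0.05, beside 0.26% of genes in E4 females, 0.241% in B6 males, 0.154% in E3 males and 0.178% in E4 males, where 2.25% to 5.61% of genes had an unadjusted p under 0.05. There the members lay between -0.26 and 0.59, the last being Per2 in B6 males (95% interval -0.05 to 1.23). Of the wider list, the ligase subunit Fbxl21 in E4 females (0.53) and the repressor Bhlhe40 in E4 males (-0.26) passed the unadjusted threshold.

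**Figure D3:**
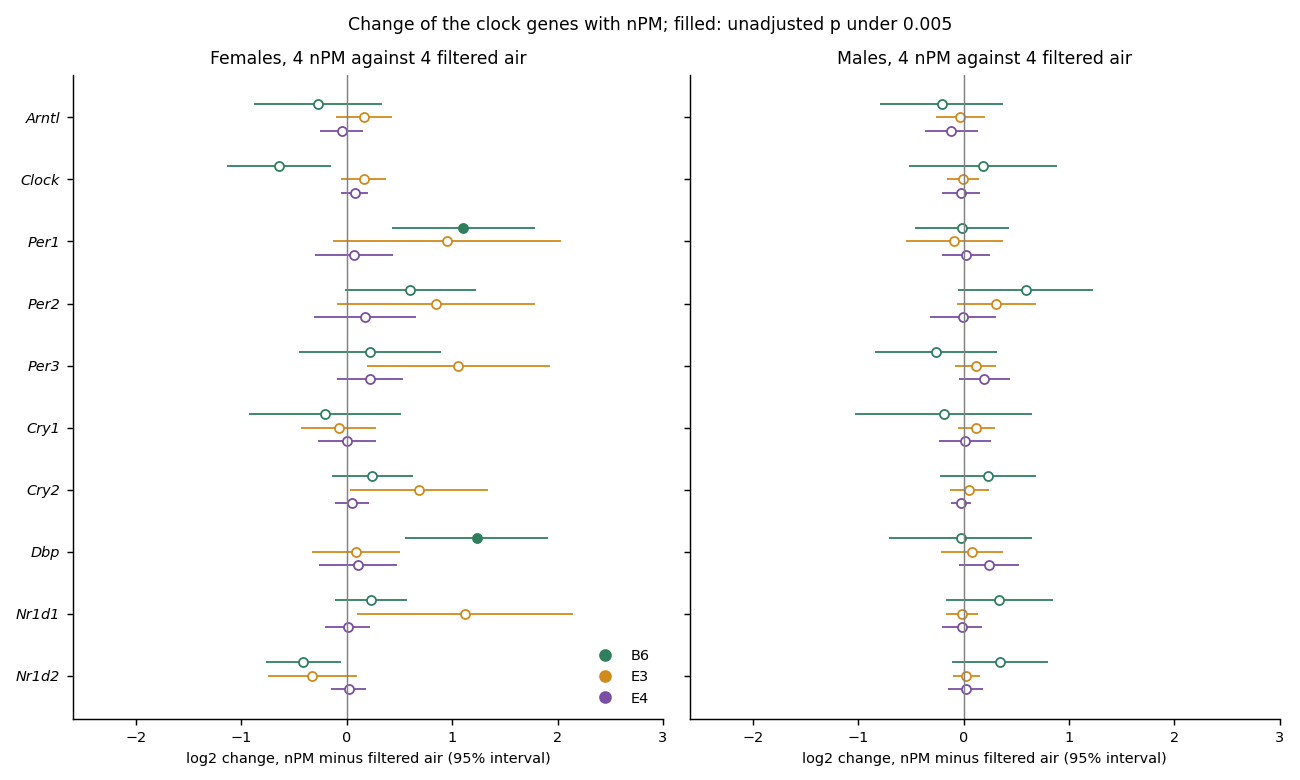
Log2 change of each clock gene under nPM against filtered air in the 6 strata of sex and genotype (4 mice against 4), with 95% intervals, where filled points passed an unadjusted p of 0.005. Per1 (1.10) and Dbp (1.23) in B6 females are the filled points, and E4 mice of both sexes lie close to 0.

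Over all 48 mice, with sex and genotype in the model, Per2 was the 1 of 10 members past the threshold. An unadjusted limma p under 0.05 was found for 5 members and 14.6% of genes. Per2, a repressor of the core loop, was higher under nPM by 0.41 on the log2 scale (SE 0.12, fold 1.33, limma adjusted p = 0.302), beside 1.41% of 11068 genes called. Without E3 female controls 61 and F6 it was at 0.32 and not called (limma adjusted p = 0.777). Its group mean was higher under nPM in 5 of the 6 strata, from 12.005 to 17.1 CPM in B6 females, 15.8 to 22.7 in B6 males, 15.3 to 26.05 in E3 females, 32.9 to 41.1 in E3 males and 28.6 to 31.4 in E4 females, and was 42.4 against 41.8 CPM in E4 males. The responses of females and males differed past the threshold for Per1 (0.73, SE 0.23, limma adjusted p = 0.228) and Nr1d2 (-0.38, SE 0.12, 0.228), beside 1.97% of genes. Without E3 female controls 61 and F6 neither did (0.54 and -0.27). With all mice, 3 members and 13.6% of genes had an unadjusted limma p under 0.05 in this comparison. The responses of E4 and E3 mice differed by limma for 0 of 10 members, beside 0.727% of 15958 genes (2 members and 10.6% of genes at an unadjusted p under 0.05), and for Fbxl21 of the wider list (0.54).

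The allele comparison set E4 against E3 within sex and air. No member was called at a false discovery rate of 5% in any of the 4 fits, beside 0.232% of genes in female controls, 0.439% in male controls, 0.145% in nPM females and 0.499% in nPM males. In limma's unadjusted p, 6, 2, 1 and 0 members of the 10 were under 0.05 in those fits, beside 41.1%, 5.81%, 9.12% and 9.9% of all genes. Female controls had the widest differences. Nr1d1 was at 82.7, 70.9, 97.8 and 93.4 CPM in E4 and 61.8, 19.7, 58.8 and 21.3 CPM in E3, and Per3 at 34.9, 35.3, 51.2 and 54.3 CPM in E4 and 29.998, 9.90, 26.5 and 16.6 CPM in E3. These did not overlap, nor did Cry2, at 100 CPM or more in each E4 and at 96.7 CPM or less in each E3 mouse. The share of all genes without overlap in this fit was not counted, so this is not read as particular to the members. The log2 differences were 1.34 for Nr1d1 (SE 0.41, limma adjusted p = 0.0764), 1.22 for Per3 (SE 0.36, 0.0764) and 0.82 for Cry2 (SE 0.27, 0.0782), each with an exact permutation p of 0.0286, and 1.45 for Per1 (SE 0.45, 0.0766). Without controls 61 and F6 they were 0.52, 0.62, 0.35 and 0.84, with limma adjusted p of 0.0661, 0.0999, 0.104 and 0.125. The same E3 controls were used for the exposure comparison in E3 females, so the pair of results is not independent. Among these female controls immediate early genes were at a median log2 difference of 0.80, 10 of 10 higher in E4, and cortical projection neuron markers at 0.86, 4 of 5 higher, with 0 called in either list. Without controls 61 and F6 these medians were 0.68 and 0.38, with 0 and 1 called, and their part in the differences of the members was not tested. In nPM females, other mice, Per1 was at 0.57 (SE 0.22) and Nr1d1 at 0.23 (SE 0.19), neither called, and in males the members lay between -0.13 and 0.36.

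The relation of the activator to the output, mouse by mouse, was read after the group means were taken out. In APOE-TR mice Arntl and Dbp ran opposite: Pearson's r was -0.649 and Spearman's rho -0.579 over 32 mice (permutation p = 0.00056 and 0.00213, 0.00112 for r adjusted over both tables). Mice with high Arntl for their group had low Dbp: E4 male control 21 had 23.7 CPM of Arntl and 34.7 CPM of Dbp, and E3 male control 63 had 23.2 and 33.2 CPM, each the highest and the lowest of its group. The r was -0.847 in 16 males (permutation p = 0.00137) and -0.472 in 16 females (0.116), -0.632 in filtered air (0.0123) and -0.704 under nPM (0.00935). It was -0.646 without the 2 mice farthest from the median of Dbp, and -0.664 without E3 female controls 61 and F6. In B6 the sign was positive and did not pass: r = 0.436 and rho = 0.456 over 16 mice (permutation p = 0.106 and 0.0971), and r = 0.373 without the 2 farthest mice. Without B6 male controls 0 and 2 it was 0.41 (permutation p = 0.175), and without B6 male control 6, the shallowest library, 0.511 (0.0467). In 1 fit of 48 mice, added after the values were seen, the slope of Arntl on Dbp was -0.386 in APOE-TR and 0.365 in B6, a difference of 0.751 (SE 0.202, limma adjusted p = 0.0225), beside 9.9% of 11067 genes called.

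**Figure D4:**
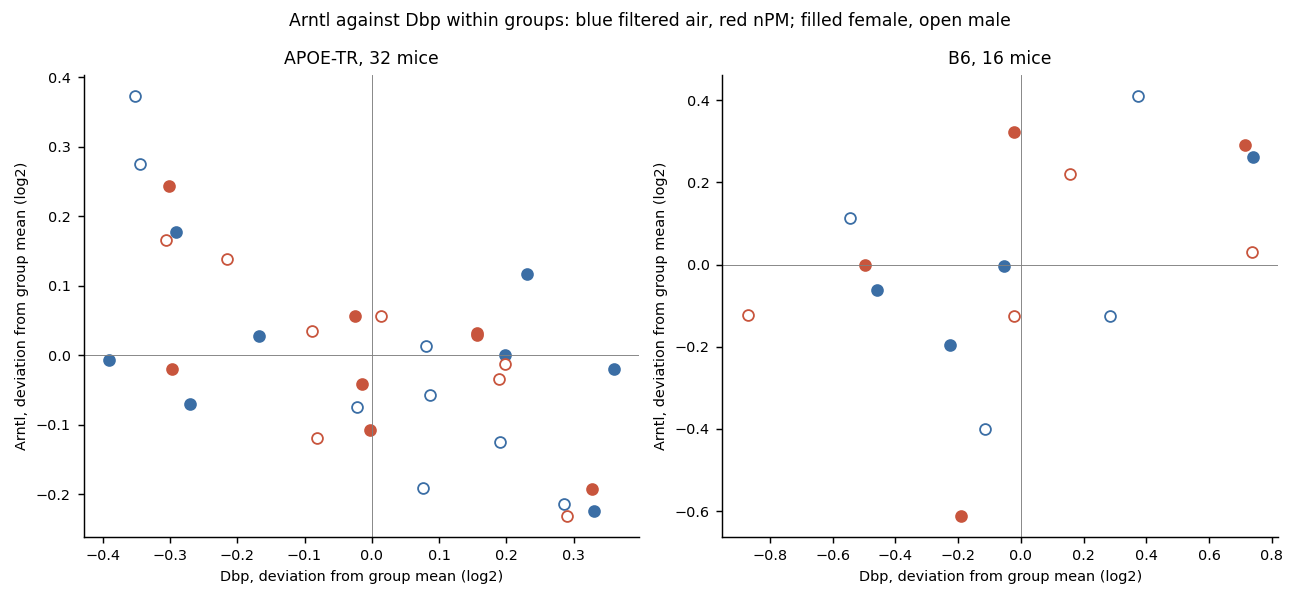
Log2 deviation of Arntl from its group mean against that of Dbp, 1 point per mouse, in APOE-TR (32 mice) and B6 (16 mice). The points fall from left to right in APOE-TR (r = -0.649) and not in B6 (r = 0.436).

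Fitted across all genes, the level of Dbp within groups went with 5 of the 9 other members in APOE-TR, beside 12.7% of 15957 genes. The slopes in log2 units were -0.40 for Arntl (SE 0.10, limma adjusted p = 0.0362), 1.05 for Per1 (SE 0.28, 0.0377), 0.92 for Nr1d1 (SE 0.23, 0.0352), 0.81 for Per3 (SE 0.21, 0.0374) and 0.53 for Cry2 (SE 0.15, 0.0392). All 5 adjusted values were near the threshold, and without E3 female controls 61 and F6 they were 0.195 to 0.291, with r of -0.664 for Arntl and 0.513 to 0.555 for the others. In the wider list Ciart, an E-box driven repressor, followed Dbp most closely (slope 1.05, r = 0.83, limma adjusted p = 0.00124), and did so without that pair of libraries (0.00352). In B6 the slope of Ciart on Dbp was negative and not called (-0.34, SE 0.41, r = -0.209). The level of Per1 went with 6 members: Cry2 (r = 0.911, limma adjusted p = 2.67e-07), Per2 (0.846, 1.72e-05), Per3 (0.729, 0.000273), Nr1d1 (0.728, 0.000273), Dbp (0.583, 0.00432) and, inversely, Nr1d2 (-0.452, 0.0397), beside 46.7% of all genes. Without the pair of E3 libraries Cry2, Per2 and Nr1d1 remained called, and with the leading axis as a covariate Cry2 and Per2 did, beside 0.432% of genes. The level of Arntl went with 0 members and 0.0125% of genes, though Clock, its partner, had r = 0.645. With the leading axis as a covariate it went with Dbp (limma adjusted p = 0.00777) and Clock (0.0474), beside 0.833% of genes, and the level of Dbp with Arntl (0.0402), beside 0.0501%. In B6 the relations to Dbp, Arntl and Per1 called 0 of 9 members each and 0% of 13839 genes.

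Several members in APOE-TR ran with the leading axis, on which the 4 E3 female controls and E3 female nPM mouse 55 had the weights farthest from 0. Across 32 mice the r of a member's deviations with that axis was -0.937 for Nr1d1, -0.895 for Cry2, -0.894 for Per3, 0.807 for Nr1d2, -0.712 for Per1 and -0.663 for Per2, and 0.0399 for Arntl and -0.126 for Clock. Nr1d1 and Nr1d2, paralogous repressors, thus ran opposite in APOE-TR, with r = -0.763, and -0.471 without E3 female controls 61 and F6. In B6 their r was 0.185. The E3 female controls 61 and F6 had 19.7 and 21.3 CPM of Nr1d1 and 219 and 196 CPM of Nr1d2, against 61.8 and 58.8 CPM and 121 and 137 CPM in the other controls of that group. Of 45 pairs of members, 20 were positive and 7 negative in both tables and 18 had opposite signs. An absolute r above 0.5 was found for 19 pairs in APOE-TR and 6 in B6.

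**Figure D5:**
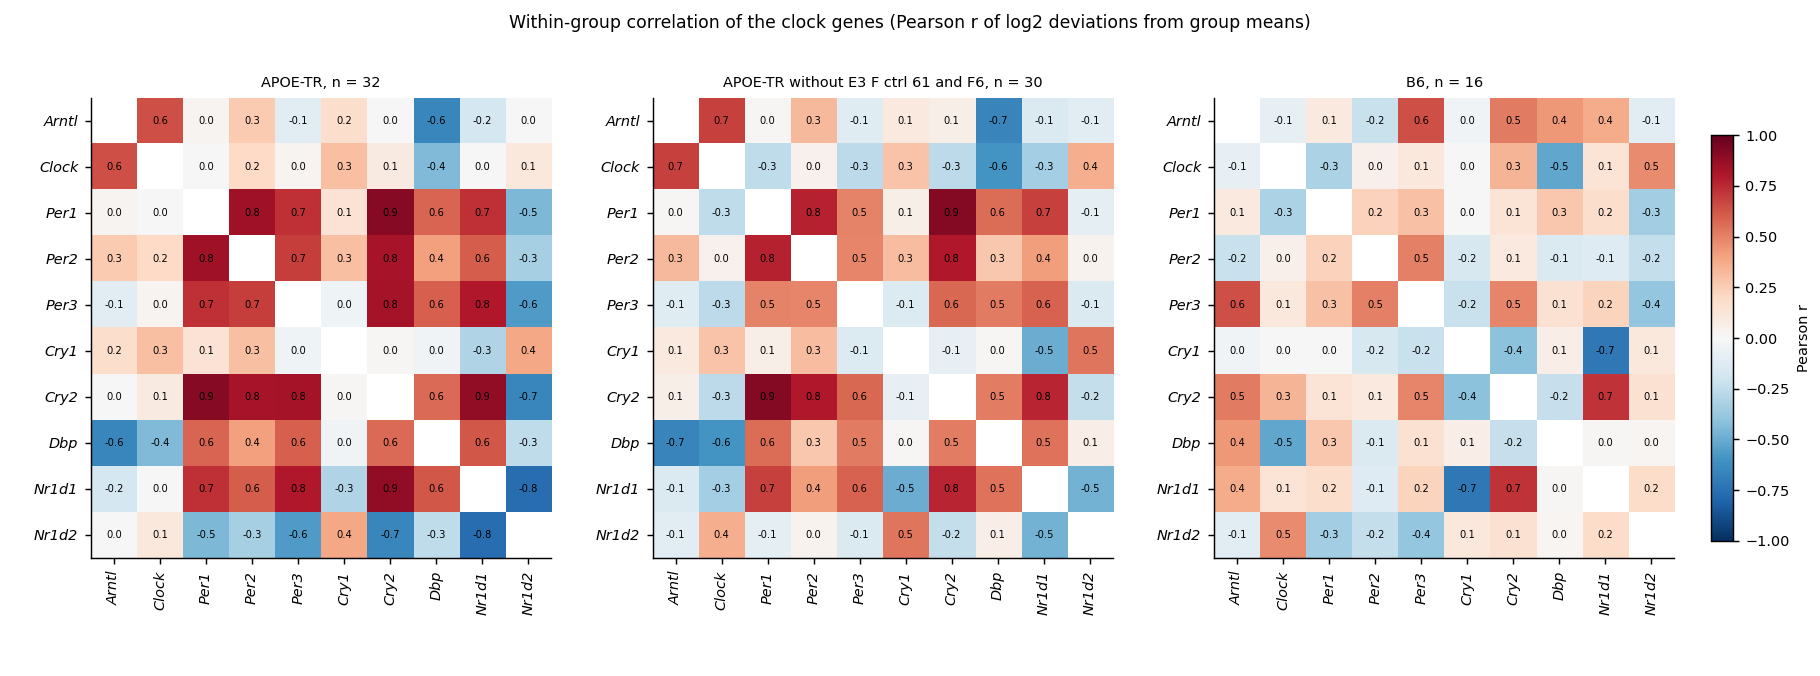
Pearson r of within-group log2 deviations for each pair of clock genes in APOE-TR (32 mice), in APOE-TR without E3 female controls 61 and F6 (30 mice) and in B6 (16 mice). The block of Per1, Per2, Cry2 and Nr1d1 is positive in both APOE-TR panels and mostly weak in B6.

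The genes most like 3 of the members, by the smaller of the within-group r of the 2 tables over 11058 genes, are named here. For Dbp they were Eno2 (0.649), Usp2 (0.638), Arl8a (0.637), Meis3 (0.623) and Vstm2l (0.618). For Arntl they were Zfp12 (0.617), Gadd45a (0.594), Pla2g4b (0.572), Dixdc1 (0.565) and Hnrnph1 (0.559). For Per1 they were Stk40 (the highest, with 0.891 in APOE-TR), Rab43 (0.749), Caskin2 (0.742), Apc2 (0.732) and Trafd1 (0.729). These are descriptions of the highest values among all genes and carry no test.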

How the data were processed

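RNA of the total cerebral cortex of 48 mice was sequenced as stranded mRNA libraries. Per the submitters' processing notes and the study's methods, reads were aligned with TopHat2 2.0.8b to mm10 and counted per RefSeq gene in Partek, and the authors deposited the values as CPM in 2 tables, 1 for B6 and 1 for APOE-TR, which were normalized separately and tested within tables unless a fit with genotype as a term is named. A gene without reads is listed at the lowest value of its mouse, the worth of 1 read. Dividing by it gave whole reads for 96.15 to 97.14% of low values in APOE-TR and 87.68 to 98.4% in B6 (tolerance 0.1, values up to 20.5 times the lowest), so depths are recovered, and approximate in B6. Column F6 could be matched to its group but not to 1 sample, 4 rows per table with a repeated symbol were left out, and 0 value columns were unused.

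CPM were rescaled by TMM (edgeR 4.0.16) and tested as log2(CPM + 0.5) with limma 3.58.1 (trend) in R 4.3.3, over genes with at least 1 read in every mouse, with Benjamini-Hochberg adjustment over all genes tested. Fold changes are on that scale and understate the change of low genes. Exposure calls used an unadjusted p of 0.005, the rule of the study, and sex, allele and relation calls a false discovery rate of 5%. Beside them stand two-sided exact permutation tests over the 70 labelings of 4 against 4 mice (smallest p 0.0286) and, for correlations, 100000 shuffles within groups. The exact tests were run for the listed genes only, so the share of all genes without overlap between groups was not counted in any comparison. Replicates are separate mice. On simulated data with 200 genes changed by 1.5 on the log2 scale, limma recovered 199 at 5% for nPM in E3 males (16889 genes, 9 unchanged genes called) and 200 for nPM over 48 mice (11068 genes, 6 unchanged genes called). Alternatives were no TMM, pseudocounts of 0.1 and 2, no filter or 10 reads in every mouse, voom, ComBat (sva 3.50.0), shared variance, fits within 1 sex or air, and omission of each mouse in turn. edgeR's quasi-likelihood test on the recovered reads, the tests between tables, the leading axis as a covariate for Arntl and Per1 and the omission of E3 female controls 61 and F6, of B6 male controls 0 and 2 and of the shallowest B6 mice were added after seeing the data. The named genes are all members, at most 3 called genes of the wider clock list per comparison by smallest p, the 5 genes most like Dbp, Arntl and Per1, and label checks; 1 result of the wider list is not reported here. The genes of the inducer lists that are named were chosen after their values were seen, as was Ciart. Members and lists were chosen with earlier results of these data known.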

Additional observations from a re-analysis of the deposited data

Results flagged for a closer look

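In E3 male controls, mouse 63 had 108 CPM of Clock against 88.8 to 90.8 CPM in the other 3, a gap of 0.899 of the group's range. It was the 1 such value among 120 combinations of member and group, where chance gives about 1 in 20. The same mouse had the lowest Dbp and the highest Arntl of its group.

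The exposure responses of females and males differed by 0.73 on the log2 scale for Per1 and by -0.38 for Nr1d2 over 12 groups (limma, unadjusted p under 0.005, adjusted p = 0.228 for each). Without E3 female controls 61 and F6 the values were 0.54 and -0.27, and neither passed.

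The sex differences in the B6 and APOE-TR experiments differed by 0.91 for Clock, -1.15 for Per1 and -1.61 for Dbp, and each passed a false discovery rate of 5% with any single mouse left out. Strain, age, exposure time, nPM batch and table go with this contrast and cannot be told apart in it.

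The slope of Arntl on Dbp within groups was higher in B6 than in APOE-TR by 0.751 (limma adjusted p = 0.0225).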

How the results depend on the processing

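Over 21 called combinations of member and comparison and 838 alternative settings, the call was kept in 769, lost in 69 and the sign turned in 0, and scaling without TMM turned the sign of no called member. The count of members called for nPM by stratum was 2, and 7 with a variance shared over 12 groups, beside 10.3% of all genes in B6 females and 14.4% in E3 females. For nPM over 48 mice it was 1, and 0 in males only and without E3 female controls 61 and F6. For the allele in controls it was 0, and 6 with shared variance (55.3% of all genes in females). For nPM by sex it was 2, and 1 with no filter, 0 without 61 and F6 and 1 without B6 male controls 0 and 2; within B6 it was 0, and 1 with at least 10 reads in every mouse or with voom. For the relation to Dbp it was 5, and 0 with no TMM, 1 with the leading axis as a covariate and 0 without 61 and F6. With that covariate it was 2 in place of 0 for the relation to Arntl and 2 in place of 6 for that to Per1, which was 3 without 61 and F6. The r of Arntl and Dbp in APOE-TR was -0.472 in females only. With each mouse left out in turn the counts ran from 0 to 2 for nPM by stratum, 1 to 1 over 48 mice, 0 to 5 for the allele in controls (5 without E3 female control 52), 11 to 14 for sex in both tables (13 with all mice), 3 to 4 for sex between tables, 0 to 2 for nPM by sex, 0 to 2 within B6 and 0 to 5 for the relation to Dbp, and r from -0.708 to -0.601 in APOE-TR and from 0.345 to 0.511 in B6. Leaving out E4 female control 38, E3 female control 52, 61, 63 or F6, or E3 female nPM mouse 55 or 67 each brought the relation to Dbp to 0 or 1. The cause of these changes was not tested. On the recovered APOE-TR reads edgeR called 8 members for sex and 0 for nPM and allele, where limma called 9 and 0. No paired analysis was run, because the groups compared hold separate mice, also where a mouse number recurs. Cry1 in B6, at 14 reads in 1 mouse, is the member whose depth limits it most.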
